A study of Mus musculus with 6 samples.

Results

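The sites described here are single nucleotide positions at which the ear DNA of a mouse met bounds taken here as heterozygous. The marrow DNA of the same mouse carried mostly the variant base. The sites were chosen from the authors' VarScan2 lists of marrow against ear by read counts alone. Variant reads made up at least 70% of the reads in marrow and 30% to 70% in ear. The rule found 343 members among 3142 rows: 187 of 1030 in animal 54, 118 of 1587 in animal 108 and 38 of 525 in animal 136. The 343 members lie at 342 positions, since 1 position is a member in 2 animals. The study sequenced captured exons of genomic DNA from whole bone marrow and, as the germline partner, from ear of 3 C57BL/6 mice, which gives 3 marrow and 3 ear samples. Each mouse was labelled R26CreERT2 Srsf2 P95H, was treated with tamoxifen and was taken when moribund, at 50 to 60 weeks (an age in the labels, a time after tamoxifen in the design text). Animals 54 and 108 were male and animal 136 was female. P95H, a change in the splicing factor Srsf2, is given for all 3 animals, heterozygous per the design text, and no animal without it was compared. That text gives 1 of them, not named, an hScl-CreERT driver with an R26eYFP reporter in place of R26CreERT2. Whole marrow and ear are mixtures of cells in which recombined and other cells cannot be told apart.

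A heterozygous position of a diploid tissue gives about as many reads of each base. If the marrow descends largely from a clone that lost a chromosome segment, or copied the other parent's, the positions of the whole segment move away from an even balance together. This is called loss of heterozygosity, and in human myeloid neoplasms it is known to expose mutations in genes such as TET2 and JAK2. A skewed base balance at a single position can also come from few reads, or from reads of near-identical copies of a sequence mapped to 1 place. The sites here are given with their depth, their place and the balance of the heterozygous positions around them.

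The flanking sequence of 6 members is shown because they lie just before a RefSeq gene start, where RefSeq's GRCm38.p6 promoter windows supply the surrounding bases. Of 64 listed rows inside such windows, members or not, 64 had the window's base as their reference base. Each sequence is 29 bases on the strand of its gene, and capitals mark the member positions.
Prl2c3, chr13:12800239-12800267, minus strand, animal 54: actatatcagtgaaCctaaaaaataagat
Olfr466, chr13:65152090-65152118, plus strand, animal 54: agaccaaTgttataaacagaaTgattcta
Gm45966, chr13:66589110-66589138, plus strand, animal 54: ggccaatcaaggtcAccaggcagacatgc
Defb48, chr14:62984566-62984594, minus strand, animal 108: ttctctgttggttaAgctctgctagccaa
Gm10324, chr13:66113410-66113438, plus strand, animal 136: atgcctgtcagacaAagaggcgggatctt
The Prl2c3 site, 174 bases before the start of this prolactin family gene, had 38 variant reads of 48 in marrow and 97 of 158 in ear. The Olfr466 window, before an olfactory receptor gene, holds 2 members within 15 bases that had 8 of 9 and 8 of 8 variant reads in marrow, against 11 of 22 and 9 of 25 in ear. The Gm45966 site (AC164297.1 in the files) had 61 of 72 variant reads in marrow and 96 of 138 in ear. The Defb48 site, before a beta-defensin gene, had 15 of 15 variant reads in marrow and 9 of 17 in ear. The Gm10324 site had 15 of 17 variant reads in marrow and 10 of 19 in ear. At the Olfr466, Defb48 and Gm10324 sites at least 1 tissue had under 20 reads, and only the Prl2c3 and Gm45966 sites had at least 40 in both.

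The values that chose the members are given as a description, without a test. In animal 54 the variant share of members ranged from 75% to 100% in marrow with a median of 80.0%, and from 30% to 69.8% in ear with a median of 43.2%. In animal 108 it ranged from 75% to 100% in marrow (median 81.3%) and from 30% to 69.9% in ear (median 42.3%). In animal 136 it ranged from 70.6% to 100% in marrow (median 81.5%) and from 30.8% to 70% in ear (median 48.8%). At 30 of the 343 members the marrow had no reference read at all. The somatic p-values in the authors' deposited table had medians of 0.0146, 0.0191 and 0.0239 over the members of animals 54, 108 and 136, and the highest was 0.0498.

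**Figure D1:**
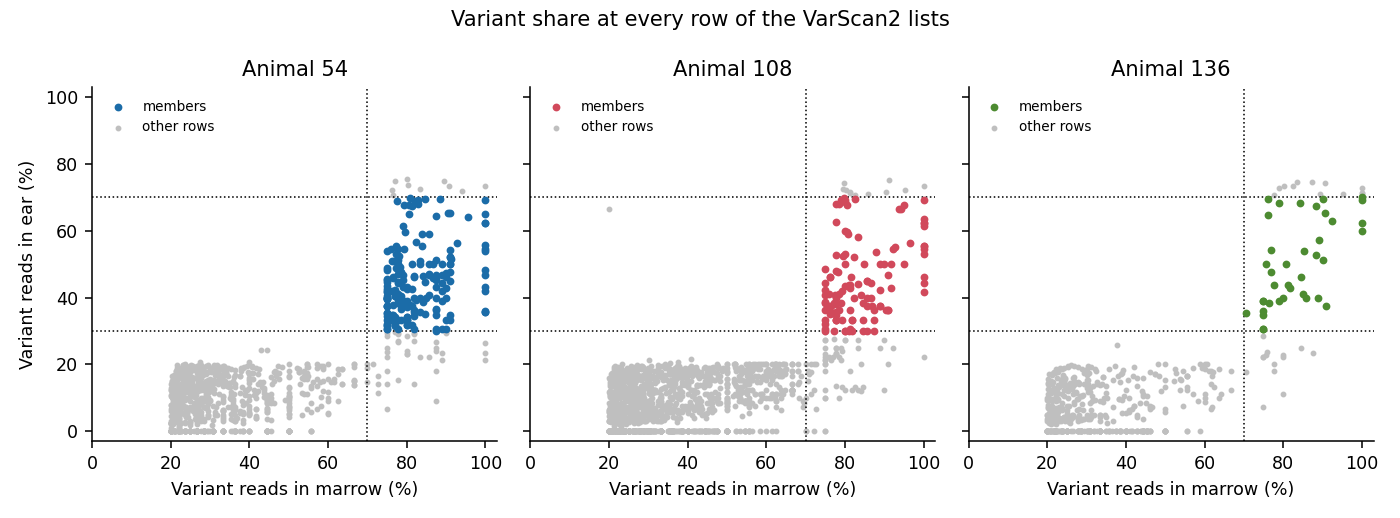
Variant reads in marrow (horizontal axis, %) and ear (vertical axis, %) at every row of the 3 VarScan2 lists, with members in colour, the other rows in grey and dotted lines at the bounds of the rule (70% in marrow, 30% and 70% in ear). The 343 members form a block on the right, 1 row in animal 108 lies at 20% in marrow and 66.7% in ear, and no other row lies between the ear bounds left of the marrow bound.

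The marrow bound removed almost nothing. Of 344 rows with 30% to 70% variant reads in ear, 343 were members and 1 was not: a site of Ddx6 in animal 108 with 4 variant reads of 20 in marrow and 12 of 18 in ear. That row was also the only 1 of all 3142 with a lower variant share in marrow than in ear. The lowest member was a Gm7582 site of animal 136 with 12 of 17 variant reads in marrow and 6 of 17 in ear, the only one under 75% in marrow. At exactly 75% stood 45 further members, in all 3 animals. The ear bounds cut through neighbouring rows. On the lower bound, at exactly 30%, lay 10 members, among them sites near Mmp7 and upstream of Cdk5 with 3 of 10 variant ear reads each, and just outside it sites in Fxyd6 and Anks1b with 8 of 27. Just inside the upper bound were a Gm4981 site with 7 of 10 variant ear reads and an Mroh2a site with 95 of 136, and just outside it a Gm17153 site with 263 of 372 and a Gm2420 site with 238 of 336. In all, 122 rows with at least 70% in marrow were left out for an ear share under 30% and 33 for one over 70%.

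Members were read less deeply than the other rows of the same lists. In animal 54 a member had a median of 14 marrow reads and 36 ear reads, against 27 and 61 at the other rows. In animal 108 the marrow had 18 and the ear 17 at members, against 35 and 27. In animal 136 they had 23 and 19.5, against 31 and 29. At least 20 reads in both tissues were present at 31%, 33.1% and 44.7% of members in animals 54, 108 and 136, and at 59.2%, 59.9% and 60.0% of the other rows. With 229 of 343 members under 20 reads in a tissue, the share at most single members is known only within a wide interval. For the missense site of Syne2 described below, with 13 of 16 variant reads in marrow and 12 of 32 in ear, the Clopper-Pearson 95% intervals run from 54.4% to 96.0% in marrow and from 21.1% to 56.3% in ear. Intervals cover counting error only, because PCR copies of a molecule were not told apart by identifiers.

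**Figure D2:**
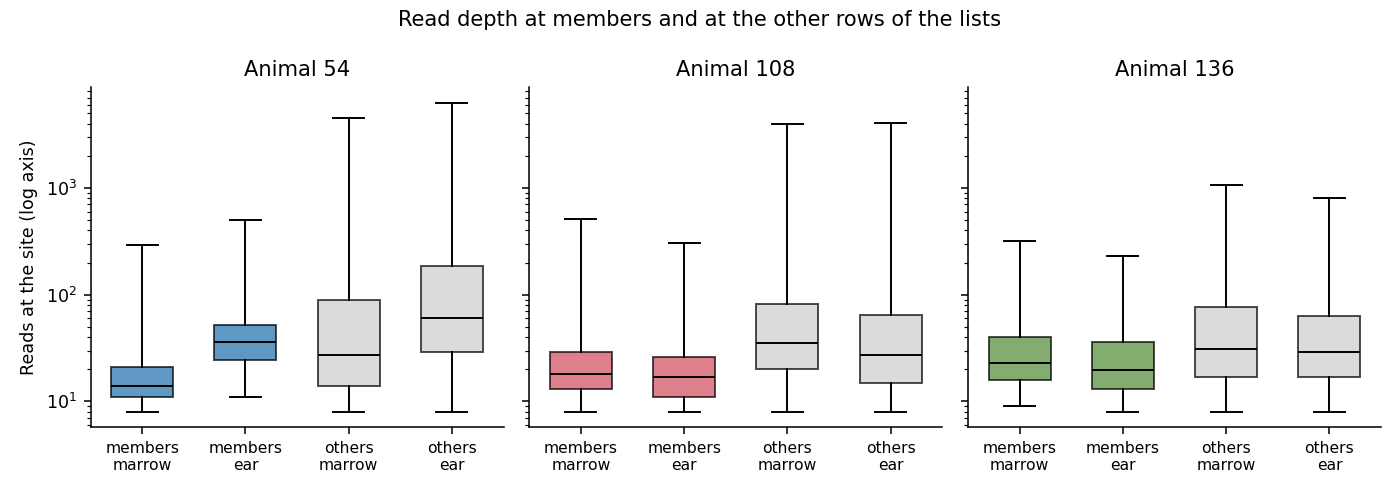
Reads at each site (vertical log axis) at members and at the other rows of the VarScan2 lists, in marrow and ear of each animal. Boxes span the quartiles with a line at the median and whiskers reach the lowest and highest value; in each animal the median of the members, 14 to 23 reads in marrow and 17 to 36 in ear, lies below that of the other rows.

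The size of the skew went with depth. The 229 members with 8 to 19 reads in the shallower tissue had median variant shares of 82.4% in marrow and 40.5% in ear, and a median difference of 41.7 percentage points. The 78 members with 20 to 39 reads had medians of 78.2% in marrow and 47.7% in ear (31.4 points). The 36 members with at least 40 reads had medians of 79.7% in marrow and 67.7% in ear, and a median difference of 14.4 points within a range of 6.74 to 39 points. Of these 36, 24 had an ear share of at least 60%, compared with 16 of the 229 shallowest. The rule and the authors' p-value threshold both act on these numbers, so their course with depth is a description of the list.

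Marrow received fewer reads than ear at the members of 1 animal only. Animal 54 had a median log2 of marrow over ear reads of -1.16, animal 108 one of 0.18 and animal 136 one of 0.13. The mean was -0.29 ± 0.76 (SD, n = 3; two-sided exact sign-flip permutation over the pairs, p = 1, where 0.25 is the smallest p that 3 pairs allow and 0.05 cannot be reached). Without animal 54 the mean was 0.15, so its sign rests on that animal. At the other rows of the lists the medians were -0.93, 0.30 and 0.19, and the members lay below them in all 3 animals, by 0.14 on average (p = 0.25, same exact permutation).

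Most members lie outside coding sequence. SnpEff placed 168 of the 343 in introns, 52 between genes, 44 upstream and 39 downstream of a gene, 16 in 3′ and 1 in 5′ untranslated regions and 1 in a noncoding exon. The coding members comprised 12 missense, 1 stop-gained and 9 synonymous sites. For the comparison with other rows, a site counted as coding when its strongest SnpEff annotation had an impact of low or above. That class is not limited to changes within coding sequence. Members carried such an annotation at 6.42%, 5.93% and 7.89% of sites in animals 54, 108 and 136, and the other rows at 12.9%, 10.2% and 10.7%. The share was lower at members in 3 of 3 animals, with a mean difference of -4.52 ± 1.88 points (SD, n = 3; exact sign-flip permutation, p = 0.25). The members outside intergenic regions are spread over 218 genes, 170 of which have a single member.

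The protein-altering members of animal 54 were 5 missense sites. In Aspm, a spindle pole protein needed for neural progenitor divisions, p.Lys2621Arg in exon 19 of 28 (chromosome 1, position 139482435) had 12 variant reads of 14 in marrow and 14 of 30 in ear. In Gpatch3, p.Leu467Pro in exon 7 of 7 (chromosome 4, position 133583654) had 16 of 20 in marrow and 19 of 51 in ear. In Eef2, the translation elongation factor that moves the ribosome along the message, p.Thr141Ile in exon 4 of 14 (chromosome 10, position 81178702) had 123 of 155 in marrow and 165 of 244 in ear. The Eef2 site was the only protein-altering member of this animal with more than 20 reads in marrow, and its share was 79.4% in marrow and 67.6% in ear. In Syne2, which links the nuclear envelope to the cytoskeleton, p.Ala849Thr in exon 21 of 116 (chromosome 12, position 75919050) had 13 of 16 in marrow and 12 of 32 in ear. In the zinc finger gene Zfp640, p.Ser199Asn in exon 3 of 3 (chromosome 13, position 66670983) had 9 of 12 in marrow and 9 of 26 in ear.

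Animal 108 had 6 protein-altering members, 2 of them in the gene model Gm10717. The stop-gained site, p.Arg131* in exon 3 of 4 of Ugt1a7c, a UDP-glucuronosyltransferase gene (chromosome 1, position 88216213), was the deepest, with 150 of 193 variant reads in marrow (77.7%) and 109 of 174 in ear (62.6%). In Mlph, melanophilin, which couples melanosomes to myosin in pigment cells, p.Gln475Glu (chromosome 1, position 90941700) had 16 of 21 in marrow and 5 of 14 in ear. In Diap3, a formin that nucleates actin filaments, p.Gly550Cys (chromosome 14, position 86966573) had 15 of 18 in marrow and 11 of 25 in ear. The other 3 lay in the gene models Gm11168 and Gm10717, close together near the start of chromosome 9. There p.Ile18Thr of Gm11168 had 52 of 63 variant reads in marrow and 92 of 132 in ear, p.His221Gln of Gm10717 had 54 of 67 and 88 of 130, and p.Pro116Ser of Gm10717 had 12 of 14 and 6 of 16. Animal 136 had 2, both in Gm11168: p.Thr56Ser with 11 of 13 variant reads in marrow and 6 of 13 in ear, and p.Asn6His with 13 of 13 and 9 of 13. Each of the 13 protein-altering sites was a member in 1 animal, and 8 of them had under 20 reads in at least 1 tissue.

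Several genes held 3 or more members in an animal, and their other heterozygous sites are given beside them where there were any. In animal 54, Syne2 held 5 members, in pairs 2 and 4 bases apart plus 1 downstream site, with 9 to 16 reads each in marrow. Within the Syne2 gene span, 206 further sites that were heterozygous in ear, had at least 20 reads in both tissues and were not in the VarScan2 list had median variant shares of 46.1% in marrow and 46.9% in ear. The 3 members of Opa1, a mitochondrial inner membrane fusion protein, had 16 of 18, 9 of 11 and 8 of 9 variant reads in marrow and 15 of 32, 4 of 11 and 8 of 18 in ear, while 19 further sites had medians of 43.4% in marrow and 46.2% in ear. The 3 members of Ldb3, a muscle Z-disc protein, in animal 108 lay within 12 bases of 1 intron with 24 of 32, 23 of 29 and 23 of 29 variant reads in marrow and 10 of 26, 8 of 19 and 7 of 21 in ear. Around them, 56 further Ldb3 sites had medians of 51.3% in marrow and 51.1% in ear. The 3 members of Zfp640 in animal 54 had 8 to 12 reads in marrow, and no further site of that gene met the conditions. Mroh2a in animal 108 differed in that its 122 further sites were away from an even balance in both tissues, with medians of 35.8% in marrow and 37.3% in ear. The gene model Gm21738 held 4 members of animal 136, with 29 of 34, 24 of 24, 29 of 32 and 38 of 47 variant reads in marrow and 7 of 13, 6 of 10, 15 of 23 and 23 of 46 in ear.

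The immunoglobulin heavy chain locus on chromosome 12, whose V segments are joined by rearrangement in B cells, held 15 members of animal 54 and none of the other animals. They ran from chr12:113358468 near Ighg3 to chr12:115848577 near Ighv1-76, with marrow shares from 75% to 100% (median 82.1%) and a median ear share of 50.0%. The deepest were a pair 6 bases apart between Ighv1-64 and Ighv8-11, with 133 of 162 and 130 of 161 variant reads in marrow and 191 of 277 and 203 of 291 in ear. Next came a site between Ighv6-6 and Ighv1-2, with 83 of 100 in marrow and 150 of 220 in ear. Over the same span, 1143 unlisted heterozygous sites of animal 54 had median shares of 47.5% in marrow and 47.1% in ear. None of the 15 member variants was called in a list of another animal. Heterozygous sites of the locus were not counted in the other animals, so nothing is read from the lack of members there. The other listed rows in this span, and in the chromosome 1 stretch below, were not counted. No enrichment of members is read from these counts. The locus and the genes on the sex chromosomes below were picked out after the members' positions were seen.

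A stretch of chromosome 1 that spans Ugt1a7c, Mroh2a and Hjurp, the chaperone that loads the centromeric histone CENP-A, held members in all 3 animals at different positions. Within its 61025 bases, from chr1:88216213 to chr1:88277238, lay 3 members of animal 54, 5 of animal 108 and 3 of animal 136. In animal 54 their median shares were 79.5% in marrow and 67.4% in ear, in animal 108 they were 79.8% and 68.7%, and animal 136 had 79.0% and 68.3%. Several of these members were deep: the synonymous Hjurp site of animal 54 had 224 variant reads of 289 in marrow and 345 of 500 in ear, and an Hjurp downstream site of animal 108 had 196 of 248 in marrow and 92 of 133 in ear. In animal 136, Hjurp upstream sites had 147 of 186 and 108 of 142 in marrow, and 128 of 187 and 97 of 150 in ear. An Mroh2a intron site of that animal had 43 of 51 in marrow and 41 of 60 in ear. Unlisted heterozygous sites of the stretch were balanced between the tissues, with medians of 54.0% in marrow and 53.6% in ear (157 sites, animal 54), 37.9% and 39% (151 sites, animal 108), and 37.9% and 41.3% (164 sites, animal 136). In animals 108 and 136 both tissues were thus below an even balance there.

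Other genes recurred between animals as well. Eef2 had its missense member in animal 54 and a synonymous one in animal 136, 88 bases away in the same exon, with 243 of 319 variant reads in marrow and 159 of 229 in ear. Sfi1, a centrosome gene, had 5 members over the 3 animals, and C130026I21Rik had 1 in each. In all, 12 genes had members in more than 1 animal, among them 4 gene models with Gm names. Genes shared between animals were not counted over the other rows, so this recurrence is not read as particular to members. The position that was a member in animals 54 and 108 lies in intron 2 of 23 of Rab3gap1, a subunit of the complex that regulates Rab3 (chromosome 1, position 127871403). In animal 54 it had 20 of 22 variant reads in marrow and 17 of 26 in ear. In animal 108 marrow had 16 of 21 and ear 12 of 26. A further member of animal 108 lay 33 bases away at position 127871436, with 14 of 17 in marrow and 12 of 23 in ear. The deepest members of animal 108, in Gm2420 and at 2 adjacent bases of Pisd-ps2, had 405 of 506, 251 of 323 and 250 of 318 variant reads in marrow, and 211 of 305, 146 of 215 and 146 of 215 in ear. All 3 had ear shares between 67.9% and 69.2%, next to the upper bound of the rule. A Gm10800 site of animal 136, by contrast, had 96 of 125 variant reads in marrow (76.8%) and 38 of 70 in ear (54.3%).

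On the sex chromosomes 5 members were found. In the male animal 54, 3 lay within 53 bases of the Y chromosome between Gm8521 and Gm20918, with marrow shares of 90.5%, 95.7% and 88.5% and ear shares of 65.2%, 64.3% and 69.4%. Males carry a single copy of the Y chromosome outside its pseudoautosomal region. Whether any of the 5 members lies in that region of the Y or X chromosome was not examined. In animal 108, also male, a Y site between Gm21857 and Erdr1 had 12 of 14 variant reads in marrow and 9 of 20 in ear. In the female animal 136 a site in an intron of Mid1 on the X chromosome had 37 of 41 in marrow and 23 of 33 in ear.

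Of 31 to 44 genes in each of 4 lists, 1 gene held a member. None of 44 myeloid neoplasm genes, 31 splicing genes or 32 DNA repair genes held a member in any animal, and 1 of 34 chromatin genes did. That is 1 of 128 different listed genes (0.781%), beside 189 of 49997 RefSeq symbols of all kinds (0.378%), and nothing is read from a count of 1. The 1 member was an intron site of Dnmt1, the methyltransferase that copies DNA methylation at replication (chromosome 9, position 20936406), in animal 54, with 13 of 16 variant reads in marrow and 17 of 40 in ear. The same Dnmt1 site was called in both tissues of animal 108, at 32.4% in marrow and 34.8% in ear.

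Members differed from the other rows of the lists in the kind of base change. Transitions, changes between A and G or between C and T, made up 70.6%, 63.6% and 55.3% of members in animals 54, 108 and 136, and 52.9%, 51.9% and 48.5% of the other rows. The excess was present in 3 of 3 animals, with a mean of 12.0 ± 5.45 points (SD, n = 3; exact sign-flip permutation, p = 0.25). The direction was the same in each animal, but the permutation cannot reach 0.05 with 3 animals. All but 1 of the other rows lay outside the ear bounds, so they are not a like set of sites. Read on the pyrimidine strand, C-to-T changes formed 34.2%, 28% and 28.9% of members in animals 54, 108 and 136, and 28%, 26.1% and 24.6% of other rows. T-to-C changes formed 36.4%, 35.6% and 26.3% of members and 24.9%, 25.8% and 23.8% of other rows.

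Genes of multigene families, such as olfactory and vomeronasal receptors, zinc finger genes, immunoglobulin segments and numbered Gm models, carried 21.4%, 20.3% and 44.7% of members in animals 54, 108 and 136, and 38.1%, 31.9% and 41.1% of the other rows. The difference had a mean of -8.20 ± 10.6 points and was below 0 in 2 of 3 animals (SD, n = 3; exact sign-flip permutation, p = 0.5). Among members of at least 40 reads in both tissues 41.7% were in such genes, and among those of 8 to 19 reads 22.7%. More heterozygous sites lay around members than around the other rows. All but 1 of the other rows lay outside the ear bounds, with median ear shares of 11.6%, 10% and 7.14% in animals 54, 108 and 136. The surroundings of ear-heterozygous sites outside the lists were not counted, so the difference is not read as particular to members. The median number of unlisted ear-heterozygous sites within 100 kb was 57, 30 and 17 around members of animals 54, 108 and 136, and 4, 4 and 1 around the other rows. At least 10 such sites were near 77.5%, 73.7% and 52.6% of members and near 43.5%, 41.5% and 27.5% of the other rows.

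Read strand was compared between the alleles of each row. In marrow, Fisher's exact test of allele by strand, adjusted over all rows of a list by the Benjamini-Hochberg method, called 2 of 187, 3 of 118 and 0 of 38 members of animals 54, 108 and 136, where 8.83%, 16.8% and 12.6% of all rows were called. In ear it called 3, 5 and 0 members, where 7.48%, 7.94% and 3.24% of all rows were called. At an unadjusted p under 0.05 there were 6, 5 and 0 members in marrow, or 3.21%, 4.24% and 0%, against 15.2%, 23.0% and 17.3% of all rows. In ear there were 11, 10 and 0, or 5.88%, 8.47% and 0%, against 13.5%, 12.0% and 6.48%. The shares of members lay below those of all rows, and members also had fewer reads, which limits what this test can call. It cannot call a row whose reads of both alleles all lie on 1 strand, and such rows were common: in marrow they were seen at 68.4%, 42.4% and 44.7% of members and at 38.8%, 28.1% and 31.4% of other rows. In ear the shares were 59.9%, 33.9% and 26.3% of members and 30.8%, 27.0% and 28.5% of other rows.

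In the ear lists of all variants the median mapping quality was 42, 41.5 and 41 at members of animals 54, 108 and 136, and 40, 41 and 39 at ear-heterozygous sites outside the VarScan2 lists. The mean difference was 1.5 ± 0.87 (SD, n = 3; exact sign-flip permutation, p = 0.25), and in the marrow lists it was -0.33, the opposite sign. Members were looked up in the authors' separate lists of all variants made with SAMtools: 132 of 187, 93 of 118 and 21 of 38 in the marrow lists, and 159, 76 and 17 in the ear lists. As shares these are 70.6%, 78.8% and 55.3% in marrow, against 36.7%, 60.3% and 49.7% of the other rows, and 85.0%, 64.4% and 44.7% in ear, against 14%, 18% and 11.1%. By the read counts of the SAMtools lists 127, 66 and 17 members met the whole rule, out of 128, 73 and 17 that were in both lists of their animal. Those lists come from the same marrow and ear samples that chose the members, so this is a recount and not a second measurement. None of the members was among the authors' Strelka calls. All 6412 single nucleotide calls of Strelka were marked as reference in ear, a class that leaves out sites heterozygous in ear.

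Heterozygous sites beside a member shared its skew, most of all within 50 bases. In this description the sites were heterozygous in ear, had at least 20 reads in both tissues and were absent from the VarScan2 lists. Within 50 bases of a member, 34 sites of animal 54 had a median variant share of 66.6% in marrow and 46.9% in ear. The 13 sites of animal 108 had medians of 69.4% and 44.0%, and the 11 of animal 136 had 71.0% and 43.9%. All of these 34, 13 and 11 sites had a higher share in marrow than in ear. Such sites lie on the same reads as the member and are not independent of it. At 51 to 150 bases the median of marrow minus ear was 2.32, 3.41 and 7.60 points in animals 54, 108 and 136. At 151 to 500 bases it was 1.94, 2.20 and 4.25 points, with 56.1%, 62.5% and 71.8% of sites higher in marrow. At 501 to 2000 bases it was 0.08, -2.39 and 0.89 points, and at 2001 to 10000 bases -0.96, -0.56 and -0.84 points. Sites more than 1 Mb away had -0.86, -0.38 and -1.83 points, within the range of -1.83 to -0.08 points that all classes beyond 2 kb spanned.

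**Figure D3:**
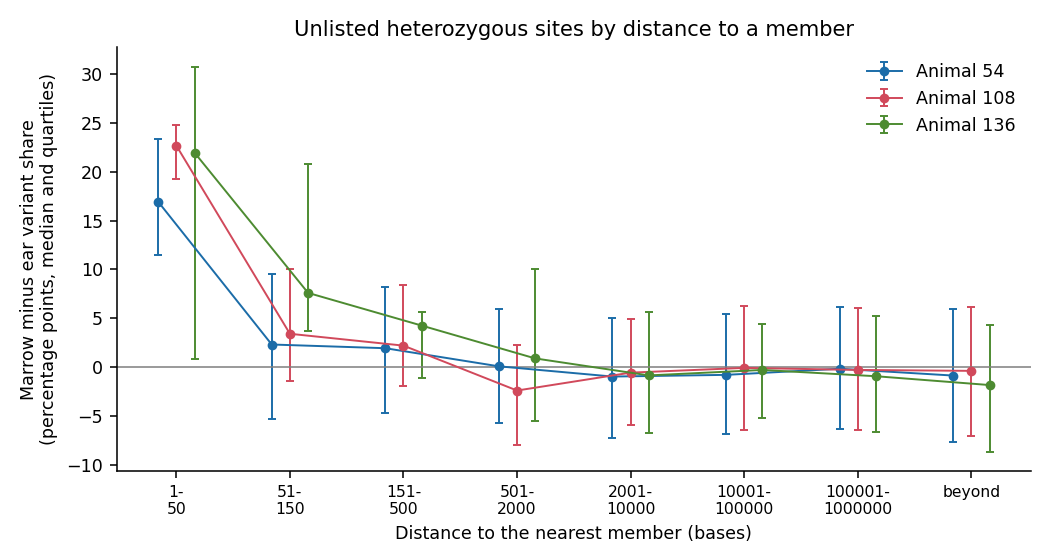
Marrow minus ear variant share (vertical axis, percentage points) of unlisted sites heterozygous in ear, by distance to the nearest member (horizontal axis, bases), for each animal; points are medians and bars the quartiles over sites. The medians are 16.9 to 22.7 points within 50 bases and between -1.83 and 0.89 points beyond 500 bases, except -2.39 points at 501 to 2000 bases in animal 108.

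Over wider windows the neighbours of members were about as balanced as other sites. Within 100 kb of a member, the median distance of the marrow share from 50% was 6.76, 6.00 and 7.03 points in animals 54, 108 and 136 (7123, 4608 and 984 sites). Farther away it was 6.52, 5.56 and 7.14 points (12319, 25630 and 4081 sites). The difference was 0.19 ± 0.28 points (SD, n = 3; exact sign-flip permutation, p = 0.5), above 0 in 2 of 3 animals. Its mean was 0.55 points with a window of 10 kb and 0.71 points with at least 40 reads (exact sign-flip permutation, p = 0.25 for each). With a window of 1 Mb its mean was -0.95 points.

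The same positions in the other animals offer values that the rule did not use, except at the Rab3gap1 position that is a member in animals 54 and 108. Of the 343 members, 15.5%, 28.8% and 57.9% of those of animals 54, 108 and 136 were also called, with the same alleles, in a list of another animal, as were 16.3%, 28.2% and 37.6% of the other rows. The mean difference was 6.74 ± 11.8 points (SD, n = 3; exact sign-flip permutation, p = 0.75), and it was -0.06 points without animal 136. At 84 combinations of a member and another animal, from 56 members, the site was called in both tissues of that animal with at least 10 reads in each. Fisher's exact test of marrow against ear, adjusted by the Benjamini-Hochberg method over all sites of the animal, called 0 of these 84, where 0.0312%, 0.0339% and 0.0205% of all tested sites were called in animals 54, 108 and 136. In the animals that chose them, the same adjusted test called 2 of 216 members. It could thus call few such sites, and 0 of 84 is not read as absence of the skew. At an unadjusted p under 0.05 there were 9 of 84, 4 of them with the higher share in marrow. Over all sites tested, 8.67%, 7.66% and 6.62% had such a p in animals 54, 108 and 136. Of the 4, 2 are the Rab3gap1 position. Marrow was higher at 39 and lower at 43.

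**Figure D4:**
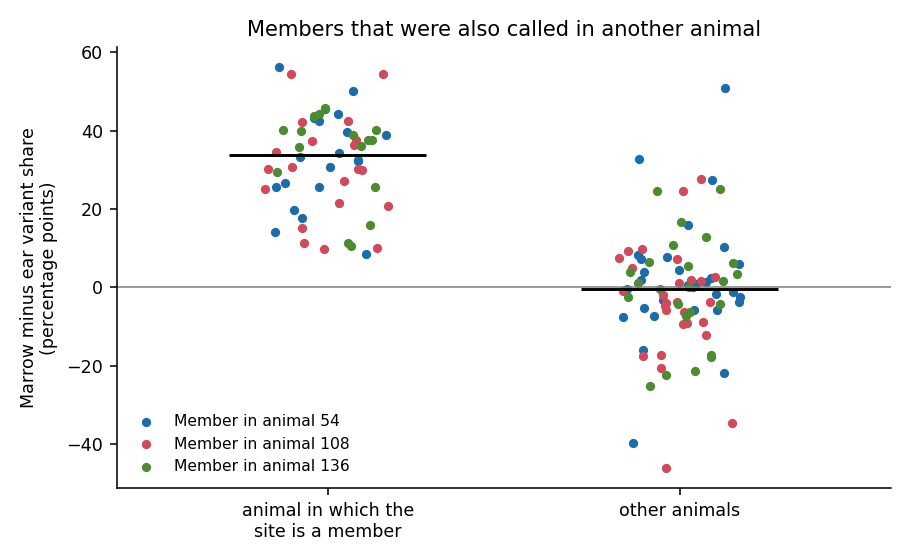
Marrow minus ear variant share (vertical axis, percentage points) of the 56 members that were called in both tissues of another animal, in the animal in which the site is a member (left) and in the other animals (right, 84 values). Colours give the animal in which the site is a member and lines are medians; the left values lie between 8.51 and 56.1 points by the rule, with a median of 33.8, and the right ones scatter around 0 with a median of -0.52 and a range of -46.2 to 50.8 points.

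Single sites show what these values look like. The stop-gained site of Ugt1a7c had, in animal 54, 59 of 125 variant reads in marrow and 96 of 199 in ear. Animal 136 had 98 of 159 in marrow and 102 of 156 in ear. The synonymous Hjurp site of animal 54 measured 75.9% in marrow and 81.7% in ear in animal 108, and in animal 136 it measured 78.1% and 76.3%. The Mroh2a intron site at position 88241391, a member in animal 108, measured 68.8% in marrow and 70.9% in ear in animal 54, while animal 136 had 79.3% and 76.6%. A member of animal 54 in Capn9, a calpain protease, had variant reads only in both tissues of animal 108 (30 of 30 and 34 of 34) and was heterozygous in animal 136, with 12 of 25 in marrow and 14 of 37 in ear. A Cntn4 site, a member in animal 54, had 12 of 15 variant reads in marrow and 7 of 24 in ear when measured in animal 136 (adjusted p = 0.392, Fisher's exact test), but 6 of 25 and 8 of 20 in animal 108.

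The lists of all variants also show how often such sites occur without the VarScan2 selection, in both directions. Among sites heterozygous in ear with at least 10 reads in both tissues, the marrow share was at least 70% at 742 of 24730, 628 of 37521 and 168 of 6742 sites in animals 54, 108 and 136. It was 30% or lower at 1837, 1770 and 752 sites. With at least 40 reads in both tissues the counts were 106, 55 and 23 sites at or above 70%, against 445, 369 and 147 at or below 30%. In each animal and at each depth more sites thus stood at or below 30% in marrow than at or above 70%. No least change from ear was asked for, so a site just inside an ear bound could be counted after a small difference. The VarScan2 lists held 343 sites at or above 70% and 1 at or below 30%. Of the 742, 628 and 168 sites, 126, 65 and 17 were members. The median marrow share over all these heterozygous sites was 47.0%, 47.4% and 45.5%, and the median ear share 47.4%, 47.5% and 46.2%. Which step of the calling left out the opposite direction was not tested.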

How the data were processed

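Exome-capture DNA of 3 marrow and 3 ear samples was analysed. The authors' deposited VarScan2 lists give read counts per allele and strand in marrow and ear, and a somatic p-value, per the file headers. The deposited SAMtools lists give depth, reads per allele and strand, and mapping quality, and all lists carry SnpEff annotation. The submitters' processing notes name FastQC, Bowtie2, SAMtools and the builds GRCm38 and mm9. The sources used here do not state the callers' filters. The build is taken as GRCm38: 176 of 182 members within genes that have a RefSeq entry lay inside its GRCm38.p6 span. The somatic status column was not used. Insertions and deletions were left out.

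Shares are variant reads over reads of both alleles. Columns were checked against the SAMtools lists: the assigned marrow column was the closer at 441 of 441, 979 of 979 and 263 of 263 sites of animals 54, 108 and 136, and the assigned ear column at 256 of 277, 314 of 341 and 60 of 71. Marrow and ear are paired by the animal number in the labels, and tests between sets of rows are exact paired sign-flip permutations over 3 animals. Per-site tests are Fisher's exact tests with Benjamini-Hochberg adjustment at 0.05 and were tested on simulated data (Python 3.11.15, scipy 1.17.1). Rows and sites near each other share reads, so counts of sites are not counts of independent events.

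Named were protein-altering members, genes with at least 3 members in an animal, positions shared by animals, the 5 deepest members per animal, members of the gene lists and rows next to a bound; loci, promoter sites and genes shared between animals were added after their values were seen. The members and lists were chosen with earlier results of these data known. Alternatives were narrower ear bounds, a higher marrow bound, at least 20 reads, close members counted once, other windows, the marrow list, and each animal left out.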

Additional observations from a re-analysis of the deposited data

How the results depend on the processing

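The number of members depends on every bound. Against 343, it was 170 with 40% to 60% variant reads in ear, 202 with at least 80% in marrow and 114 with at least 20 reads in both tissues; members within 150 bases counted once gave 304, and leaving out 1 animal gave 156 to 305. The exact paired sign-flip test cannot pass 0.05 with 3 animals, so no alternative moved a contrast across that threshold, and this says nothing about stability. Signs turned in 4 results: the depth ratio (log2) was 0.15 without animal 54 (range -0.52 to 0.15 over the animals left out), the share found in other animals -0.0562 points without animal 136 (range -0.0562 to 10.5), the skew of neighbours -0.95 points with a 1 Mb window, and mapping quality -0.33 in the marrow lists. Ignoring the pairing of marrow and ear (no replicate block) gave a depth ratio of -0.35 (exact permutation p = 0.5). The transition share, the coding share and the multigene family share kept their direction in every alternative run. No member was called in another animal with at least 10 or at least 20 reads. With at least 10 reads the same test called 2 of 216 members in their own animals, so it could call few. The strand test made 13 calls over the 6 tissue lists under both settings. A comparison with rows at 30% to 70% in ear and at or below 30% in marrow was not run, because only 1 such row exists. Depth limits most: 229 of 343 members had under 20 reads in a tissue.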
